A study of Mus musculus with 26 samples.

Results

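The miRNAs described here are the 5 mature products of miR-103 and miR-107, a small family of microRNAs (miRNAs, short RNAs that guide repression of messenger RNAs) encoded inside pantothenate kinase (Pank) genes. They were chosen by name, with earlier results of these data known, and are 5 of the 1915 entries in the deposited table of counts per mature miRNA. They are mmu-miR-103-3p, mmu-miR-103-1-5p, mmu-miR-103-2-5p, mmu-miR-107-3p and mmu-miR-107-5p, written below without the species prefix. Small RNA was sequenced in 26 libraries from CA1, a hippocampal region that serves memory, of mice 3 months old. The 3 groups were wild type littermate controls given vehicle (n = 9), transgenic CamkdeltaC mice on vehicle (n = 7) and transgenic CamkdeltaC mice on Vorinostat (n = 10), a histone deacetylase inhibitor also called SAHA. All groups drank the vehicle or the drug in water for 4 weeks from an age of 2 months. Transgenic mice were assigned to the drug at random, and both sexes were used. No group held wild type mice on Vorinostat, and the labels give neither the promoter of the transgene nor the cells that express it. Whether libraries are separate animals is not stated in the labels, so the p-values cover only differences among these libraries, which may be technical.

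Each miRNA hairpin is cut into a 5p and a 3p strand, of which usually a single strand is loaded into the silencing complex and the other is degraded. In this family the 3p strand is the loaded guide, and it recognises targets mainly through its seed, the bases from the second to the eighth. miR-103 and miR-107 are widely expressed, including in neurons. They are known to repress Dicer (the enzyme that makes miRNAs), caveolin-1 (a regulator of the insulin receptor) and BACE1 (the protease that starts amyloid production). Their host genes encode pantothenate kinases, which start the synthesis of coenzyme A.

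The mature sequences are shown because the family divides into 2 seeds and its members differ by single bases. All 5 members matched an entry of RefSeq for GRCm38.p6. Capitals mark the seed, bases 2 to 8 from the 5′ end.
miR-103-3p: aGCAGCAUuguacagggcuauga
miR-107-3p: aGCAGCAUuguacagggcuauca
miR-103-1-5p: gGCUUCUUuacagugcugccuug
miR-103-2-5p: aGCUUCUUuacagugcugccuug
miR-107-5p: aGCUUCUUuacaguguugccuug
Each of the 5 is 23 bases long. miR-103-3p and miR-107-3p share the seed GCAGCAU and differ by G22C, with positions counted from the 5′ end and the first-named miRNA's base written first. Of 1679 mature mouse miRNA names in the RefSeq table, 2 (0.119%) carry this seed at bases 2 to 8, and they are these 2. The 5p arms share the seed GCUUCUU, which no other mature name in that table has. miR-103-1-5p and miR-103-2-5p differ by G1A, and miR-103-2-5p and miR-107-5p by C16U. The sources used here do not give how reads were assigned to such near-identical miRNAs. The base that separates miR-103-3p from miR-107-3p is the last but 1, so a read trimmed by 2 bases at its 3′ end fits both, and the division of reads between them is uncertain to that degree.

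The 3 hairpins are shown because 2 of them yield the same 3p miRNA. Capitals mark the 5p arm and then the 3p arm.
Mir103-1: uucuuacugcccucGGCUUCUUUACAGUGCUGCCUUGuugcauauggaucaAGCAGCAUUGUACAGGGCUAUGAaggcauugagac
Mir103-2: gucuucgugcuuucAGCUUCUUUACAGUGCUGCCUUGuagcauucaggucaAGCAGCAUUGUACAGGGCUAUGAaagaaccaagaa
Mir107: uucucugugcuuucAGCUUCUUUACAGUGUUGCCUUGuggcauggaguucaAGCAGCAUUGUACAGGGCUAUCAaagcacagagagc
Mir103-1 lies at chr11:35782396-35782481 on the plus strand of GRCm38, the assembly that mm10 denotes, in intron 5 of the 6 introns of Pank3 (transcript Pank3-201). Mir103-2 lies at chr2:131288052-131288137 on the plus strand, in intron 5 of 6 of Pank2 (Pank2-204). Mir107 lies at chr19:34820687-34820773 on the minus strand, in intron 5 of 6 of Pank1 (Pank1-201). Each hairpin is on the strand of its host, and none overlaps an exon of its host. The miR-103-3p sequence is the same in Mir103-1 and Mir103-2, so its reads cannot be assigned to Pank3 or Pank2. The host messenger RNAs were not measured in these libraries.

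Total counts per library, in units of 1000000 (M), ran from 0.585 to 17.6 M in wild type vehicle, from 6.01 to 24.8 M in transgenic vehicle and from 3.89 to 15.7 M in transgenic Vorinostat. Wild type vehicle replicate 1 (0.585 M) and transgenic Vorinostat replicate 8 (3.89 M) had the lowest totals of all libraries. They are called below the 2 that stood apart, and values that rest on them are also given without them. In the levels of the members only wild type vehicle replicate 1 passed the limit for single outliers described at the end. Libraries ran in 2 sequencing lanes named in the headers of the count table, L001 (6 wild type, 3 transgenic vehicle and 4 Vorinostat libraries) and L002 (3, 4 and 6). The neuronal marker miRNAs (miR-124-3p, miR-128-3p, miR-9-5p, miR-138-5p and miR-137-3p) together held 196078 to 468610 counts per 1000000 in every library. No marker miRNA of the other cell types examined was at 0 over all libraries together.

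miR-103-3p was an abundant miRNA in CA1 and miR-107-3p a moderately abundant one, and both were read in 26 of 26 libraries. Levels are counts per 1000000 (CPM), scaled by edgeR's TMM factors. Over all libraries miR-103-3p averaged 2596 ± 900 CPM (SD, n = 26), which was 0.266 ± 0.104% of the counts of a library. Its median rank by abundance was 38.5, between 30 and 90 in single libraries. miR-107-3p averaged 200 ± 102.6 CPM (SD, n = 26), with a median rank of 134 and a range of 104 to 237. In reads, 866159 were counted for miR-103-3p and 68020 for miR-107-3p.

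By group, miR-103-3p had a lowest, median and highest level of 558, 2253 and 3726 CPM in wild type vehicle. In transgenic vehicle these were 1911, 3351 and 3866 CPM, and in transgenic Vorinostat 1254, 2718 and 3869 CPM. The 3 groups overlapped over most of their range, and the highest library of each group lay at nearly the same level. For miR-107-3p the lowest, median and highest levels were 24.97, 218 and 362 CPM in wild type vehicle. They were 122, 263 and 346 CPM in transgenic vehicle and 57.9, 189 and 325 CPM in transgenic Vorinostat. These groups overlapped as well, and transgenic vehicle had the highest median and the highest low end for both miRNAs. The lowest value of each miRNA came from wild type vehicle replicate 1, with 268 reads of miR-103-3p (558 CPM, exact Poisson 95% interval 493 to 629) and 12 reads of miR-107-3p (24.97 CPM, 12.9 to 43.6), intervals that cover counting error only.

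**Figure D1:**
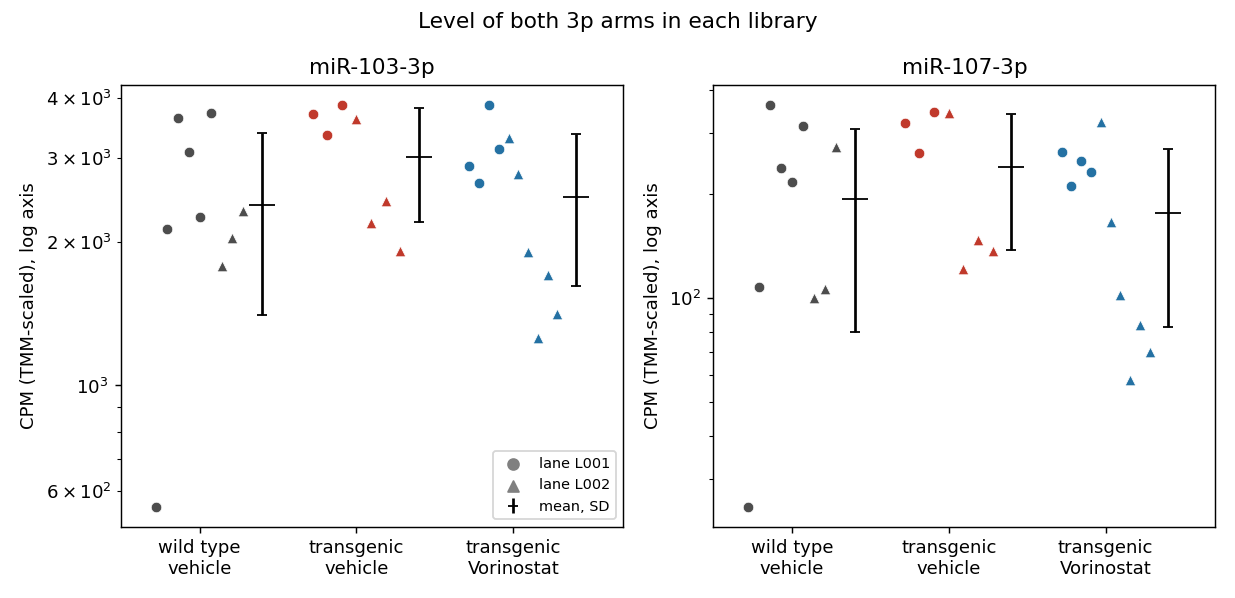
Level of miR-103-3p (left) and miR-107-3p (right) in each of the 26 libraries, in TMM-scaled CPM on a log axis, by group, with lane shown by the marker and the mean and SD beside the points. The groups overlap for both miRNAs, and the lowest point of each panel is wild type vehicle replicate 1, at 558 and 24.97 CPM.

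Group means of miR-103-3p were 2392 ± 986 CPM in wild type vehicle (SD, n = 9), 3011 ± 808 CPM in transgenic vehicle (SD, n = 7) and 2488 ± 874 CPM in transgenic Vorinostat (SD, n = 10). Those of miR-107-3p were 194 ± 114, 240 ± 102 and 176 ± 93.7 CPM (SD, same n). In order of mean, transgenic vehicle stood first for both, and the other groups followed within 1 SD of it. Without wild type vehicle replicate 1 the wild type means were 2621 ± 755 and 215 ± 102 CPM (SD, n = 8). Without Vorinostat replicate 8 the Vorinostat means were 2625 ± 805 and 189 ± 89.0 CPM (SD, n = 9).

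The 5p arms were close to absent. Over all 26 libraries together 3 reads were counted for miR-103-1-5p in 2 libraries, 20 for miR-103-2-5p in 7 libraries and 5 for miR-107-5p in 3 libraries. These 3 members fell below the filter on low counts, so 2 of the 5 members were tested between groups. Per 1000000 reads of both arms, the miR-103 5p arms held 26.6 (23 of 866182 reads, exact Clopper-Pearson 95% interval 16.8 to 39.8). For miR-107 the 5p arm held 73.5 per 1000000 (5 of 68025 reads, 23.9 to 172). In both hairpins the guide strand thus made up nearly all of the reads, and the intervals of both shares overlap.

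miR-103-2-5p was read in transgenic libraries and in none from wild type mice. Transgenic vehicle replicates 2, 3, 6, 8 and 9 held 6, 2, 2, 3 and 4 reads, and replicates 5 and 10 held 0. Vorinostat replicates 1 and 6 held 1 and 2 reads, and the other 8 held 0. All 9 wild type vehicle libraries held 0, as they did for miR-103-1-5p and miR-107-5p. As a share of both miR-103 arms, the 5p arms held 18 of 308313 reads in transgenic vehicle, or 58.4 per 1000000 (exact Clopper-Pearson 95% interval 34.6 to 92.3). In transgenic Vorinostat they held 5 of 284969 reads, or 17.5 per 1000000 (5.70 to 40.9). Wild type vehicle held 0 of 272900 reads, which allows up to 10.99 per 1000000 at a limit of 3 reads over the group, and 13.5 as the exact upper bound. These intervals are of pooled reads and take no account of the spread between libraries.

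The wild type libraries held 32.4% and the transgenic vehicle libraries 30.8% of all counts, so pooled depth was close to equal. Of 98 entries with 15 to 25 reads over all libraries, 2 (2.04%) held 0 reads in wild type, miR-103-2-5p included. In an edgeR fit of all 1389 entries that had any read, miR-103-2-5p had an unadjusted p of 3.89e-04 between transgenic and wild type vehicle and an adjusted p of 0.540. It did not pass at this depth. The pattern was noticed in these data and no other sample set tested it. miR-107-5p had 4 reads in 2 transgenic vehicle libraries (replicates 2 and 8, 2 each) and 1 read in Vorinostat replicate 2. miR-103-1-5p had 1 read in transgenic vehicle replicate 2 and 2 reads in Vorinostat replicate 6. Such counts show no order between groups.

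The 3p arms were next compared with each other inside each library, where depth and scaling factors cancel. miR-107-3p made up 6.73 ± 1.76% of the reads of both 3p arms (SD, n = 26), from 4.29 to 10.6% in single libraries. The share was 6.98 ± 2.23% in wild type vehicle (SD, n = 9), 7.11 ± 1.29% in transgenic vehicle (SD, n = 7) and 6.23 ± 1.62% in transgenic Vorinostat (SD, n = 10). On the log2 scale, with 1 added to each count, the ratio of miR-103-3p to miR-107-3p was 3.79 ± 0.49, 3.73 ± 0.29 and 3.95 ± 0.39 in the same groups. The ratio differed by -0.06 between transgenic and wild type vehicle (exact permutation test, two-sided, p = 0.765, adjusted over the 3 comparisons 0.765). Between Vorinostat and vehicle in transgenic mice the ratio differed by 0.23 (exact permutation p = 0.211, adjusted 0.631). Between transgenic Vorinostat and wild type vehicle it differed by 0.16 (exact permutation p = 0.421, adjusted 0.631). None of these differences exceeded the spread between libraries. By lane the mean share was 7.24 ± 1.45% in L001 and 6.21 ± 1.94% in L002 (SD, n = 13 each).

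The levels of the 2 miRNAs went together across libraries. Pearson r of their log2 CPM was 0.953 and Spearman rho 0.913 (n = 26). The permutation p was 1e-05 for each, the smallest that 100000 permutations can give, and 3e-05 when adjusted over the 3 relations computed. Without the 2 libraries farthest from the median of miR-103-3p, which were the 2 that stood apart in depth, r was 0.920. Within lanes r was 0.971 in L001 and 0.929 in L002. These points share a library's depth, scaling and base composition on both axes.

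miR-107-3p varied more than miR-103-3p. The least-squares slope of its log2 CPM on that of miR-103-3p was 1.45, so libraries low in miR-103-3p were lower still in miR-107-3p. The log2 ratio of miR-107-3p to miR-103-3p rose with the level of miR-103-3p (Pearson r = 0.676, Spearman rho = 0.717, permutation p = 8e-05 each, adjusted 1.2e-04). Without the same 2 libraries r was 0.651, and within lanes it was 0.665 (L001) and 0.719 (L002). The miR-103-3p count enters both of these measures. Against the log10 of total counts the same ratio had r = 0.339 (permutation p = 0.0770) and rho = 0.219 (permutation p = 0.280), and r was 0.0391 without the 2 libraries. Within lanes this r was 0.537 in L001, which holds the library of 0.585 M counts, and 0.203 in L002.

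**Figure D2:**
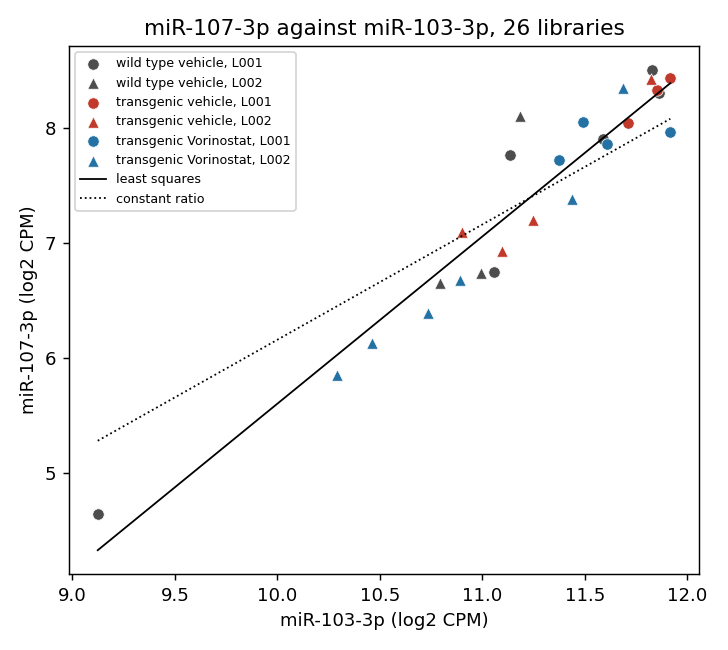
Log2 CPM of miR-107-3p against that of miR-103-3p in the 26 libraries, with groups by colour and lanes by marker, the least-squares line (slope 1.45, solid) and the line of a constant ratio (dotted). Points follow the steeper line, with libraries of all groups mixed along it.

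The genotype comparison set transgenic against wild type mice on vehicle. Means of both 3p arms were higher in transgenic vehicle, and neither difference passed. The log2 difference was 0.33 (SE 0.28) for miR-103-3p and 0.30 (SE 0.41) for miR-107-3p, with an adjusted p of 0.980 for each in edgeR's quasi-likelihood test with Benjamini-Hochberg adjustment. Of the 605 miRNAs tested 0 passed at an adjusted p under 0.05 (0%), and 13 (2.15%) had an unadjusted p under 0.05, among which neither member was. DESeq2 and limma voom also called 0, with 18 and 7 at an unadjusted p under 0.05. The library of lowest depth is a wild type one, and without it and Vorinostat replicate 8 the differences were 0.18 (SE 0.21) and 0.13 (SE 0.35). Within lane L001 they were 0.49 and 0.52, and within L002 0.30 and 0.20. The direction was the same in both lanes, with errors nearly as large as the differences or larger.

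The Vorinostat comparison set the drug against vehicle within transgenic mice. Both 3p arms had lower means with Vorinostat, by -0.27 (SE 0.27) on the log2 scale for miR-103-3p and -0.44 (SE 0.40) for miR-107-3p. Neither passed in edgeR (adjusted p = 0.836 for each). Of 605 miRNAs 0 passed (0%) and 21 (3.47%) had an unadjusted p under 0.05, again without either member. DESeq2 and limma voom called 0, with 26 and 16 unadjusted. Within lanes the differences were -0.26 (L001) and -0.31 (L002) for miR-103-3p, and -0.41 and -0.48 for miR-107-3p. Without the 2 libraries that stood apart they were -0.21 (SE 0.20) and -0.35 (SE 0.34).

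Vehicle and Vorinostat libraries of transgenic mice share 7 replicate numbers in the labels, and same-numbered libraries ran in the same lane except in pair 5, where vehicle ran in L001 and Vorinostat in L002. The labels do not say what a number stands for. Same-numbered libraries deviated together over miRNAs (median r 0.459), but differently numbered libraries of the same lane did so too (median r 0.321). Only 2 of 7 vehicle libraries correlated best with their own number. The pairing is thus assumed, and the p-values over pairs hold only if the numbers mark true pairs. Comparing these libraries as 7 pairs was decided after seeing the data. miR-107-3p was 322, 263, 346, 343, 122, 147 and 137 CPM with vehicle in replicates 2, 3, 5, 6, 8, 9 and 10. With Vorinostat it was 211, 249.6, 325, 167, 57.9, 83.7 and 69.8 CPM in the same order. It was lower with the drug in 7 of 7 pairs. In the 4 pairs of lane L002 the Vorinostat level was 47.5 to 56.9% of the vehicle level. In both pairs of L001 (2 and 3) it was 65.5 and 95.1%, and in pair 5, across lanes, 93.7%.

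miR-103-3p was 3702, 3351, 3866, 3624, 2190, 2432 and 1911 CPM with vehicle in the same pairs. With Vorinostat it was 2658, 3869, 3299, 2778, 1254, 1707 and 1409 CPM. It was lower in 6 of 7 pairs and higher in pair 3. Among all 605 tested miRNAs 4.79% were lower in 7 of 7 pairs and 16.9% in 6 or 7.

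The mean log2 difference within pairs was -0.67 for miR-107-3p (SD 0.43, n = 7 pairs, from -1.07 to -0.07). The exact two-sided sign-change test gave an unadjusted p of 0.0156, the smallest that 128 sign changes allow. For miR-103-3p the mean was -0.38 (SD 0.31, n = 7 pairs; exact p = 0.0312, unadjusted). In edgeR with the pair as a block over these 14 libraries, the adjusted p was 0.0557 for miR-107-3p (log2 difference -0.67, SE 0.15) and 0.0729 for miR-103-3p (-0.38, SE 0.12). Neither passed, while 5 of 567 miRNAs (0.882%) did. Without pair 8, which holds the Vorinostat library that stands apart, 0 passed, and the values were -0.60 (adjusted p = 0.0953) and -0.30 (adjusted p = 0.122). The log2 ratio of miR-103-3p to miR-107-3p was higher with Vorinostat in 6 of 7 pairs, by a mean of 0.29 (SD 0.26; exact p = 0.0469, unadjusted). Adjusted over the 3 comparisons this did not pass (exact p = 0.141).

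Pair 5, which crosses lanes, was then left out, also after seeing the data. It had the highest correlation of the 7 same-numbered pairs (r = 0.599) and a small fall of miR-107-3p (log2 difference -0.09). With pair 5 kept, miR-107-3p had not passed. Over the 6 pairs that share a lane miR-107-3p was lower with Vorinostat in 6, by -0.76 in edgeR with the block (SE 0.16, adjusted p = 0.0347), and passed, as did 15 of 565 miRNAs (2.65%). miR-103-3p was lower in 5 of these 6 pairs and did not pass (-0.40, SE 0.13, edgeR adjusted p = 0.0876). The call of miR-107-3p was lost when pair 8, with the Vorinostat library that stands apart, was left out too (-0.70, edgeR adjusted p = 0.0706), and 0 of 567 miRNAs then passed. The exact sign-change p over the 6 pairs was 0.0312 for miR-107-3p, the smallest that 64 sign changes allow, and 0.0625 for miR-103-3p, both unadjusted.

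**Figure D3:**
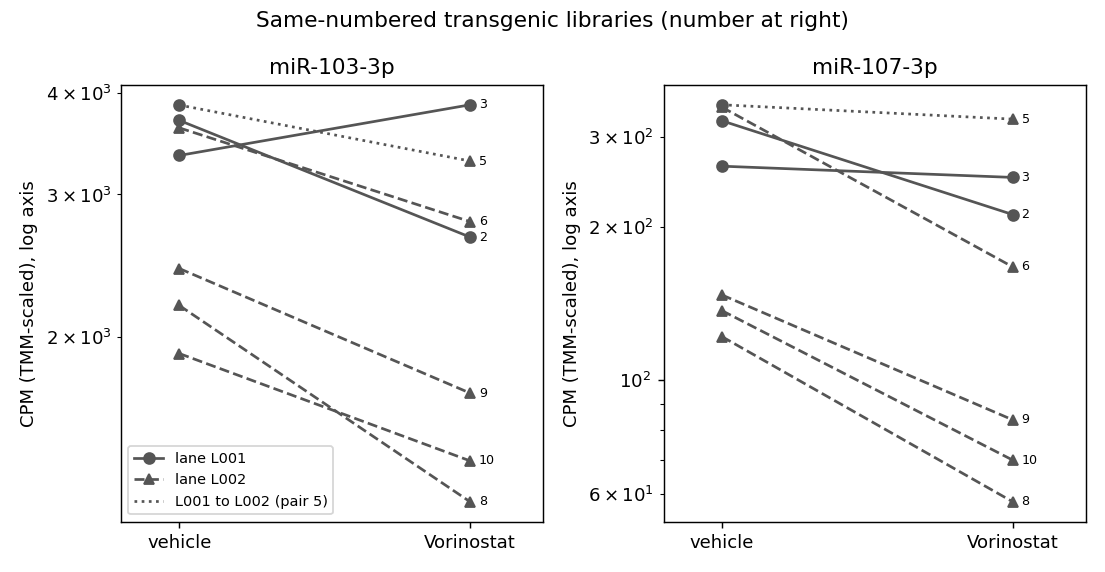
CPM (log axis) of miR-103-3p (left) and miR-107-3p (right) in the 7 same-numbered pairs of transgenic libraries, vehicle at left and Vorinostat at right of each panel, with the replicate number beside each line, each library's lane by its marker and the pair's lane by line style (dotted for pair 5, which crosses lanes). Lines fall in 7 of 7 pairs for miR-107-3p and in 6 of 7 for miR-103-3p, where pair 3 rises.

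Marker miRNAs of other cell types were summed in the same libraries. The sum of 4 vessel-wall miRNAs was lowest at 6370, 6144 and 6163 CPM for wild type vehicle, for transgenic vehicle and for Vorinostat, with medians of 8600, 9408 and 9584 CPM. Its highest values were 12019, 11520 and 22636 CPM, so single Vorinostat libraries reached higher than the rest. The sum of 3 miRNAs of thalamus and sensory cells had medians of 119, 85.1 and 138 CPM, with ranges of 50.8 to 1330, 60.0 to 140 and 96.4 to 511 CPM. Erythrocyte miRNAs reached 2033 CPM in wild type vehicle replicate 1. Over the 26 libraries the vessel-wall sum had a Spearman rho of -0.739 with the CPM of miR-103-3p and -0.856 with that of miR-107-3p. Within lanes these were -0.467 and -0.615 in L001 and -0.918 and -0.945 in L002. The thalamus and sensory sum had -0.535 and -0.653 over all libraries, with -0.665 and -0.912 in L001 and -0.473 and -0.560 in L002. The neuronal sum had -0.376 and -0.476, and the other 5 marker sums lay between -0.165 and 0.190 for both miRNAs over all libraries. Within lanes some of these were larger and of opposite sign. The oligodendrocyte sum had -0.313 and -0.681 in L001 and 0.505 and 0.346 in L002. The heart and skeletal muscle sum had -0.231 in L001 and 0.423 in L002 with miR-107-3p. Both miRNAs were thus low where the vessel-wall and thalamus sums were high, in values that share a library's depth, scaling and total. Such values were common. Of the other 604 tested miRNAs, 35.6% had an absolute rho above 0.7 with miR-103-3p and 38.9% with miR-107-3p. These sums are therefore not set apart from many other miRNAs. The part of these markers in the levels of miR-103-3p and miR-107-3p was not tested. In such bulk samples, fewer cells of a type and less RNA per cell cannot be told apart.

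Transgenic mice on Vorinostat were last compared with wild type mice on vehicle. Both 3p arms lay close to the wild type level, with a log2 difference of 0.06 (SE 0.26) for miR-103-3p and -0.15 (SE 0.37) for miR-107-3p (edgeR adjusted p = 0.9997 each). Of 605 miRNAs 0 passed (0%) and 19 (3.14%) had an unadjusted p under 0.05. DESeq2 and limma voom called 0, with 29 and 23 unadjusted. Within L001 the differences were 0.23 and 0.11, and within L002 -0.02 and -0.28. The sign changed with the lane for both, so these values give no direction. Without the 2 libraries that stood apart they were -0.03 (SE 0.20) and -0.22 (SE 0.33). The transgenic vehicle libraries enter both other comparisons and the wild type libraries enter the first and the last, so the 3 sets of values are not independent.

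**Figure D4:**
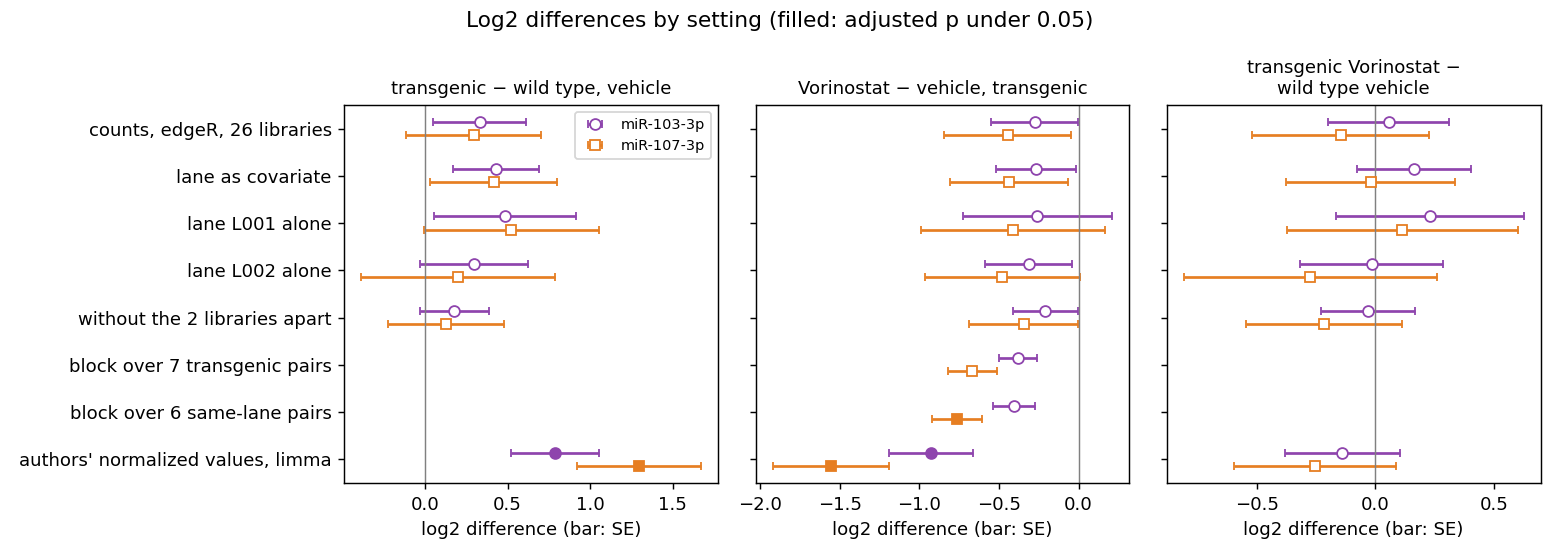
Log2 differences of miR-103-3p (circles) and miR-107-3p (squares) in the 3 comparisons, with bars of 1 SE, under 8 ways of fitting; filled symbols have an adjusted p under 0.05. Filled symbols appear with the authors' normalized values in the genotype comparison (0.78 and 1.30) and the Vorinostat comparison (-0.93 and -1.55), and for miR-107-3p over the 6 pairs that share a lane (-0.76).

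Mean levels of both miRNAs were lower in lane L002 than in L001. Within each group the lower replicate numbers ran in L001, so lane and replicate number cannot be told apart. miR-103-3p averaged 2988 ± 935 CPM in L001 and 2203 ± 694 CPM in L002 (SD, n = 13 each), with medians of 3123 and 2039 CPM. miR-107-3p averaged 243 ± 93.5 and 156 ± 95.6 CPM, with medians of 250 and 122 CPM. Single libraries crossed this division. In L002 miR-107-3p was 274 CPM in wild type vehicle replicate 9, 343 in transgenic vehicle replicate 6 and 325 in Vorinostat replicate 5. In L001 it was 24.97 and 108 CPM in wild type vehicle replicates 1 and 2. Over miRNAs, wild type replicate 9 deviated with Vorinostat replicate 1 of L001 (r = 0.553) and against Vorinostat replicate 8 of its own lane (r = -0.556). The source of this division was not tested. The log2 difference of L002 from L001, with group in the model, was -0.49 (SE 0.21, edgeR adjusted p = 0.230) for miR-103-3p and -0.66 (SE 0.31, adjusted p = 0.232) for miR-107-3p, while 0.165% of 605 miRNAs passed. Without the 2 libraries that stood apart the values were -0.50 (SE 0.14, adjusted p = 0.0247) and -0.65 (SE 0.25, adjusted p = 0.0794), and 13.7% of 604 miRNAs passed. miR-103-3p was therefore among the miRNAs that differed between lanes in that fit. With lane as a covariate the genotype differences were 0.43 and 0.42 (SE 0.26 and 0.39) for miR-103-3p and miR-107-3p, the Vorinostat differences -0.27 and -0.44, and none passed.

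The authors' normalized values gave another picture of the same libraries. These values are on a log2 scale for 674 miRNAs, and the sources used here do not say how they were made. Those of miR-103-3p had a lowest, median and highest of 11.9, 13.8 and 14.8 in wild type vehicle, of 14.02, 14.5 and 14.99 in transgenic vehicle and of 12.8, 13.6 and 14.2 in transgenic Vorinostat. For miR-107-3p they were 5.93, 8.57 and 10.1, then 8.93, 9.67 and 10.5, then 7.20, 8.12 and 8.97. In these values 1 of 10 Vorinostat libraries lay above the lowest transgenic vehicle library, for each miRNA, against 6 of 10 in log2 CPM. Of the 9 wild type libraries 2 did so for each miRNA, against 7 (miR-103-3p) and 5 (miR-107-3p) in log2 CPM.

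In limma on the authors' values, miR-103-3p was higher in transgenic than wild type vehicle by 0.78 (SE 0.27, adjusted p = 0.0163) and miR-107-3p by 1.30 (SE 0.37, adjusted p = 0.00741). In that comparison 366 of 674 miRNAs passed (54.3%), 229 higher and 137 lower. With Vorinostat against vehicle in transgenic mice, limma gave -0.93 (SE 0.26, adjusted p = 0.00568) for miR-103-3p and -1.55 (SE 0.37, adjusted p = 0.00262) for miR-107-3p. There 360 miRNAs passed (53.4%), 111 higher and 249 lower, so a pass was the common outcome for any miRNA in these values. Between transgenic Vorinostat and wild type vehicle the values were -0.14 (limma adjusted p = 0.918) and -0.26 (adjusted p = 0.902), and 6 miRNAs (0.89%) passed. From the counts, neither member passed over all libraries in any comparison.

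The gap between both scales was measured directly. The authors' value of miR-103-3p exceeded its log2 CPM by 2.64 ± 0.31 in wild type vehicle (SD, n = 9), 2.98 ± 0.37 in transgenic vehicle (SD, n = 7) and 2.37 ± 0.44 in transgenic Vorinostat (SD, n = 10). For miR-107-3p the gap was 1.11 ± 0.50, 1.89 ± 0.63 and 0.88 ± 0.66. It was largest in transgenic vehicle and smallest with Vorinostat for both miRNAs. The median of the same gap over 605 miRNAs, taken in each library, had group means of 0.73, 0.82 and 0.59, in the same order of groups but with smaller steps.

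**Figure D5:**
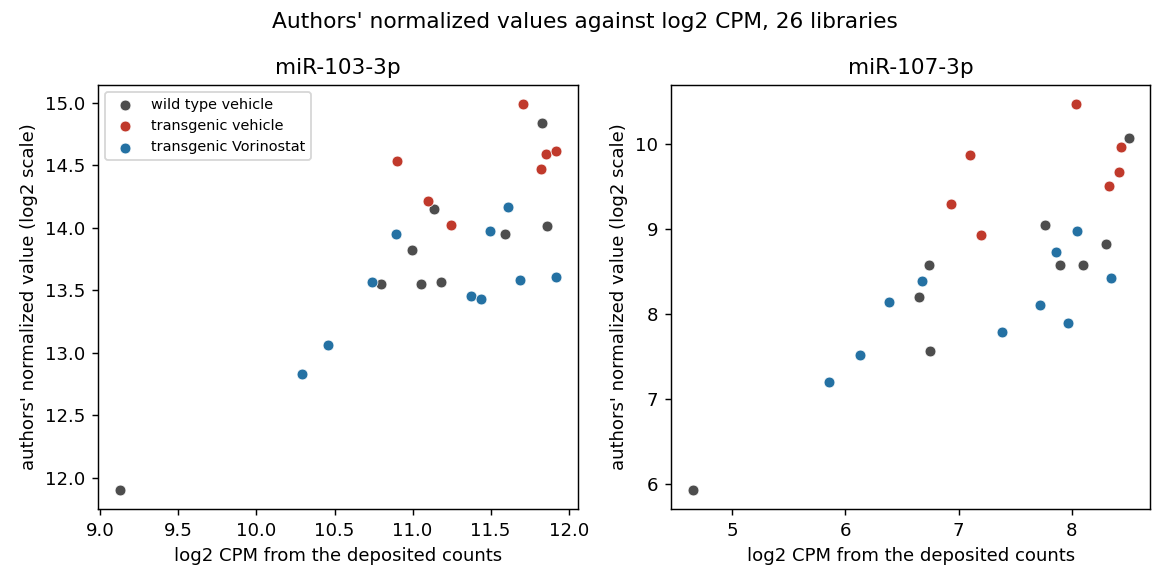
The authors' normalized value (log2 scale) against log2 CPM from the deposited counts, for miR-103-3p (left) and miR-107-3p (right), 1 point per library and colour by group. At a given log2 CPM the transgenic vehicle libraries tend to lie above the Vorinostat libraries, with mean gaps of 2.98 against 2.37 for miR-103-3p and 1.89 against 0.88 for miR-107-3p.

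In the authors' deposited table of co-expression modules both 3p arms were assigned to the turquoise module, which held 404 of the 674 miRNAs. Their membership there was 0.962 (miR-103-3p, rank 46 of 404) and 0.975 (miR-107-3p, rank 32), against a module median of 0.767 in the authors' deposited table. Membership in the blue module was -0.893 and -0.936, and in the brown module 0.626 and 0.502, per the authors' deposited table. The authors built these modules on these libraries, so the memberships are not independent of the levels above.

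Other miRNAs carry the family's motif AGCAGC near the 5′ end and are known together as the group of miR-15 and miR-107, which represses cell cycle and metabolic genes. The motif was searched as these letters on the mature strand only, in the first 8 bases, and 13 of 1679 mature names (0.774%) had it, of which 9 were tested here. It overlaps the GCAGCAU seed. In the sequences below capitals mark the motif, which starts at base 1 in miR-103-3p and miR-107-3p and at base 2 in the others, so their seeds differ by a shift of 1 base.
miR-16-5p: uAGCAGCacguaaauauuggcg
miR-15a-5p: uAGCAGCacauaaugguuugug
miR-195a-5p: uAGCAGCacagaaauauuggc
miR-497a-5p: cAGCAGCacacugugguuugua
A list of 13 known relatives of miR-103 and miR-107, which leaves out both, is another set than the 13 names with the motif. Of the 12 listed relatives with a sequence, 11 had the motif in the first 8 bases. From the list 7 passed the filter, and these 7 had the motif. Between transgenic and wild type vehicle 0 passed (0% of all 605), and the 7 log2 differences lay above 0 with a median of 0.31, against 0.03 over all tested miRNAs. Between Vorinostat and vehicle 0 passed, and the 7 lay below 0 with a median of -0.29, against -0.00976 over all. These are the signs that miR-103-3p and miR-107-3p had in the same libraries, and the medians over all tested miRNAs had them too. Some of the 7 were close to 0, as miR-503-5p by genotype (0.04, SE 0.35) and miR-322-5p with Vorinostat (-0.05, SE 0.31). Whether the 7 share a sign more often than other miRNAs do was not tested. In both comparisons 0 of the 7 had an unadjusted p under 0.05 in edgeR. The same transgenic vehicle libraries enter both with opposite sign, so the 2 sets of signs are not separate results. The most abundant relatives were miR-16-5p, which holds back the cell cycle, and miR-195a-5p of the same seed. miR-16-5p averaged 357 CPM, above miR-107-3p and below miR-103-3p, with log2 differences of 0.40 (SE 0.50) by genotype and -0.50 (SE 0.49) with Vorinostat. miR-195a-5p averaged 61.0 CPM, with 0.31 and -0.29. Between transgenic Vorinostat and wild type vehicle the median of the 7 was -0.09.

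Another 2 sets give context for the family's known roles. These were 18 miRNAs of insulin and lipid metabolism, of which 15 passed the filter, and 13 miRNAs known to target Dicer or BACE1, of which 13 did. In each comparison 0 of them passed in edgeR. With Vorinostat an unadjusted p under 0.05 was reached by 3 of the 13 (let-7b-5p and miR-29b-3p lower, let-7i-5p higher) and 1 of the 15 (miR-29b-3p, which is in both sets). Over all 605 it was 3.47%. Between transgenic Vorinostat and wild type vehicle 1 of the 13 and 0 of the 15 reached it, against 3.14% of all, and by genotype 0 of either set. The metabolic set had median log2 differences of 0.23 by genotype, -0.17 with the drug and 0.06 between transgenic Vorinostat and wild type vehicle. The set for Dicer or BACE1 had 0.15, -0.27 and -0.09. Its most abundant member, the neuronal miR-9-5p at 126121 CPM, differed by 0.19 and -0.03 in the first 2 comparisons. Next came let-7i-5p, of the let-7 family, at 21091 CPM with -0.09 and 0.34. In the metabolic set miR-29a-3p, known to repress collagen genes, averaged 5907 CPM with 0.33 and -0.36. miR-370-3p, a miRNA of the imprinted Dlk1-Dio3 region, averaged 3782 CPM with -0.36 and 0.63, the reverse of the signs of miR-103-3p and miR-107-3p.

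The miRNAs whose log2 CPM went most closely with miR-103-3p over the 26 libraries were miR-20a-5p (Spearman rho 0.957), miR-93-5p (0.943), miR-191-5p (0.925), miR-124-5p (0.923) and miR-221-3p (0.919). miR-20a-5p and miR-93-5p are members of the miR-17 seed family, and miR-124-5p is the lesser arm of the neuronal miR-124. miR-107-3p came sixth in that order. Farthest from miR-103-3p were miR-674-3p (-0.904), miR-6899-3p (-0.890) and miR-5099 (-0.875). For miR-107-3p the closest were miR-30b-5p (0.965), miR-30c-5p (0.964), miR-369-3p (0.962), miR-708-5p (0.961) and miR-23a-3p (0.954), and miR-103-3p had rank 30. Farthest from miR-107-3p were miR-151-3p (-0.976), miR-5099 (-0.973) and miR-370-3p (-0.972). A rho above 0.9 was reached by 11 of the other 604 miRNAs with miR-103-3p and by 36 with miR-107-3p. The seed partner was not the closest match of either, and miRNAs with other seeds lay nearer to both. All of these values share the libraries' depth and lanes.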

How the data were processed

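Small RNA from CA1 was made into TruSeq Small RNA libraries and sequenced as single reads of 50 bases on a HiSeq2000, per the labels' protocols. The files the authors deposited hold raw counts for each mature miRNA, normalized values on a log2 scale, and membership scores with p-values for co-expression modules, per the file headers. FastQC 0.11.5 and mm10 are named in the submitters' processing notes. The aligner, annotation and counting settings are each not given in the sources.

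Counts were tested with edgeR 4.0.16 in R 4.3.3 (quasi-likelihood, TMM factors, filterByExpr at a minimum count of 10 and minimum total of 15), as 1 model of 3 groups over 605 miRNAs, with Benjamini-Hochberg adjustment at 0.05. DESeq2 1.42.0 and limma 3.58.1 were alternatives, and limma also tested the authors' values. CPM are counts per 1000000 of the TMM-scaled total, with a prior count of 2 for log2 CPM. Ratios used a pseudocount of 1 and exact permutation tests. Planned ratios with a 5p arm were not tested, since most libraries had 0 reads of it. Depth and its intervals (95%) stand with the values.

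In the comparison of transgenic with wild type vehicle simulated over 593 miRNAs, edgeR recovered 63.3% of those raised by a log2 of 1, 68.8% of those lowered by 1, and 100% of those changed by 2 either way. It called 1.76% of unchanged ones. These shares were taken over all simulated miRNAs and not for the members described here. In the data the tested members had an SE of 0.28 and 0.41 in this comparison. The shares therefore do not show how often a change in a member would be found. The effect on the shares of miRNAs that vary together across libraries was not tested.

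Replicate numbers come from the labels. Same-numbered transgenic libraries on vehicle and Vorinostat correlated in their deviations from group means with r from 0.265 to 0.599 (median 0.459), over 0.1 in 7 of 7, and were taken to pair. Differently numbered libraries also exceeded 0.1, as transgenic vehicle replicate 8 did with Vorinostat replicates 7 and 9 (r = 0.498 and 0.601). That limit therefore does not set same-numbered libraries apart, and the pairing is an assumption. The median r between differently numbered libraries of the same lane was 0.321, and 2 of 7 correlated best with their own number. Of the wild type pairs, 4 of 6 with transgenic vehicle and 6 of 9 with Vorinostat were over 0.1, and these were not taken to pair.

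The 5 members are always named, with the 2 most abundant of each list and the 5 most and 3 least alike by Spearman rho. Members and lists were chosen with earlier results of these data known. Alternatives covered scaling, filters, tools, lane, the replicate block, libraries left out and the authors' values.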

Additional observations from a re-analysis of the deposited data

Results flagged for a closer look

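Wild type vehicle replicate 1, the library with 0.585 M counts (M, 1000000), lay far below the other 8 wild type libraries in 3 of 15 sets of values examined. Its log2 CPM of miR-103-3p was 9.12, against 10.8 to 11.9 in the others. For miR-107-3p its log2 CPM was 4.65, against 6.65 to 8.502. Its authors' value of miR-103-3p was 11.9, against 13.5 to 14.8. In each set the gap to the nearest library was larger, relative to the whole range, than a 95% limit for single outliers allows, a limit that chance passes in about 5% of groups. The 3 values come from 1 library, so they are not separate events.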

How the results depend on the processing

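From the counts, 1 setting made a 3p arm pass: the replicate block over the 6 transgenic pairs that share a lane (miR-107-3p -0.76, 15 calls), lost without pair 8 (0 calls). That setting was chosen after seeing the data, and over all transgenic pairs neither 3p arm passed. The genotype (0.18 to 0.49 for miR-103-3p, 0.13 to 0.52 for miR-107-3p) and Vorinostat differences (-0.40 to -0.19 and -0.76 to -0.33) kept their signs under every setting run. Adjusted p from the counts ran from 0.808 to 0.9999 by genotype for each, and with Vorinostat from 0.0729 to 0.9997 (miR-103-3p) and 0.0347 to 0.9997 (miR-107-3p). With the authors' values and limma, counts of calls were 366 (genotype), 360 (Vorinostat) and 6 (Vorinostat against wild type), with 0.78, 1.30, -0.93 and -1.55 for the members in the first 2 comparisons; the cause was not tested. Against wild type, miR-103-3p under Vorinostat (0.06) changed sign with library totals (-0.033), in lane L002 (-0.016), without both libraries that stood apart (-0.032), with the 2 groups alone (-0.00608), as a merged entry with miR-107-3p (-0.00993, a value of both together) and with the authors' values (-0.14). miR-107-3p did so in L001 (0.11). The log2 ratio of miR-103-3p to miR-107-3p changed sign in L001 for Vorinostat against wild type (-0.070) and, by genotype, in L002 (0.026), without both libraries (0.010) and without wild type vehicle replicate 1 alone (0.010).

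Leaving out each library in turn, the log2 difference ran from 0.18 to 0.43 (miR-103-3p), 0.13 to 0.46 (miR-107-3p) and -0.15 to 0.01 (their ratio) by genotype. It ran from -0.40 to -0.19, -0.61 to -0.33 and 0.17 to 0.30 with Vorinostat. Against wild type it ran from -0.11 to 0.14 (other sign in 10 of 26), -0.32 to -0.04 and 0.07 to 0.24. Calls were 0 throughout.

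With the replicate block over 26 libraries 0 miRNAs passed, and differences were 0.40 and 0.37 (genotype), -0.25 and -0.46 (Vorinostat), and 0.15 and -0.10; the ratio by genotype was 0.064 within pairs. The block over the 7 transgenic pairs called 5. Planned ratios with a 5p arm were left out, since most libraries had 0 reads of it.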
